A study of Mus musculus with 14 samples.

Results

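The 10 genes followed here mark the excitatory neurons of the hippocampal subfields, and were measured in 3 brain regions of mice lacking CARIP and of wild-type mice. They were taken by symbol from a table of 48440 genes. Prox1, Dsp, C1ql2 and Tdo2 stand for granule cells of the dentate gyrus, Fibcd1, Wfs1 and Spink8 for pyramidal neurons of field CA1, Iyd and Cpne7 for neurons of the CA fields, and Zbtb20 for both the dentate gyrus and the CA fields. All 10 were among the 24680 genes that passed the filter on low counts.

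Bulk RNA-seq of total RNA gave 14 libraries, 7 from mice of genotype CARIP-/- (knockout, KO) and 7 from wild-type (WT) mice, all of strain C57BL/6. Hippocampus was represented by KO libraries 1 and 2 and WT libraries 2 and 3, and cerebral cortex (titled Cerebrum) by the same numbers. Cerebellum was represented by KO libraries 1 to 3 and WT libraries 1 to 3. The labels give neither age nor sex, do not say how the CARIP allele was made, and do not say that each library came from its own mouse. P-values therefore measure the spread between these libraries, which may be partly technical. No annotated symbol names CARIP, so the loss of the targeted gene was not checked in these libraries.

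The hippocampus carries signals from the dentate gyrus, whose granule cells send mossy fibres to CA3, through CA3 and its Schaffer collaterals to CA1. Each of these fields holds 1 main type of glutamatergic neuron, and each type keeps its own set of transcription factors, adhesion proteins and enzymes. Prox1 maintains granule cell identity, Zbtb20 is needed for the hippocampus to form its fields, and Wfs1 and Fibcd1 are widely used to draw the border of CA1. In bulk tissue, fewer cells of a type and less RNA per cell cannot be told apart.

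The libraries held 20.1 to 38.8 M counted reads. Levels are CPM, the reads of a gene per M reads of its library, with totals scaled by TMM (the trimmed mean of M-values of edgeR), and differences are log2 fold changes ± SE from 1 edgeR quasi-likelihood fit to all 14 libraries. A gene was called where its Benjamini-Hochberg adjusted p was under 0.05. Of the 14 libraries, 3 stood apart in some neuronal markers of other regions. KO cortex library 2 had a summed level of 467 CPM over 8 striatal markers, against 60.9 to 73.6 CPM in the other cortical libraries. Its 6 thalamic markers summed to 411 CPM, against 68.9 to 87 CPM in those libraries, and its 6 choroid plexus markers to 585 CPM, against 12.9 to 31.3 CPM. KO cerebellum 2 and WT cerebellum 2 held 35.7 and 49.9 CPM of Lamp5, against 0.662 to 1.28 CPM in the other cerebellar libraries. Lamp5, of the interneuron list, is a forebrain marker named here after its values were seen. The sums of the neuronal lists did not lie above those of the other cerebellar libraries. Forebrain excitatory markers summed to 407 and 453 CPM, against 429 to 525 CPM. Interneuron markers summed to 808 and 779 CPM, against 744 to 843 CPM. Region differences that move by more than 1.5-fold without these 3 libraries are also given without them, a comparison added after the data were seen. Choroid plexus markers set further libraries apart. Their sum was 1130 CPM in WT hippocampus 2, against 79.5 to 130 CPM in the other hippocampal libraries, and 27.2 CPM in WT cerebellum 1, against 638 to 1373 CPM in the other cerebellar ones. Both were kept in the set without the 3 libraries and were left out in turn.

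Of the 10 genes, 8 have a start site in the RefSeq promoter table for GRCm38.p6. Spink8 and Cpne7 are named only. The first 3 sequences below belong to the dentate genes whose levels followed 1 order across the hippocampal libraries, and the last 2 to the genes with the steadiest and the most variable level in hippocampus among the 5 CA genes followed here. Gene positions further on are those of GRCm38. Each sequence runs 5′ to 3′ over the 250 bases before the RefSeq start, and capitals mark matches on either strand to the E-box letters CAGCTG or the E-box letters CAGATG or the TATA box letters TATAAA.
Prox1 (chr1:190170828-190171077, minus strand): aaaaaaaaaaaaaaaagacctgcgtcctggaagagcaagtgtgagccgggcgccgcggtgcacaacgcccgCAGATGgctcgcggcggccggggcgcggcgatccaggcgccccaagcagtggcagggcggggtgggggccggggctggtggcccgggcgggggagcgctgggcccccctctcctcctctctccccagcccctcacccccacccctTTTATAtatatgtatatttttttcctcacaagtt
Dsp (chr13:38151044-38151293, plus strand): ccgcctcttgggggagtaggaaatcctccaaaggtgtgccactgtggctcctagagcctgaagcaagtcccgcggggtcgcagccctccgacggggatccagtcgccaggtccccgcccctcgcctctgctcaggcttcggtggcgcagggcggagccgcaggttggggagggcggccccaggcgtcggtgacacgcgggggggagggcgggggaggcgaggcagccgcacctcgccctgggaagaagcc
Tdo2 (chr3:81975729-81975978, minus strand): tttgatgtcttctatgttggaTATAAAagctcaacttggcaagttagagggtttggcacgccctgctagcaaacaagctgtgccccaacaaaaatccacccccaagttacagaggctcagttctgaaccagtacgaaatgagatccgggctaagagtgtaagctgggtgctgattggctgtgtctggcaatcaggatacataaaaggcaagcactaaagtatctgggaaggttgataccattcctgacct
Fibcd1 (chr2:31846006-31846255, minus strand): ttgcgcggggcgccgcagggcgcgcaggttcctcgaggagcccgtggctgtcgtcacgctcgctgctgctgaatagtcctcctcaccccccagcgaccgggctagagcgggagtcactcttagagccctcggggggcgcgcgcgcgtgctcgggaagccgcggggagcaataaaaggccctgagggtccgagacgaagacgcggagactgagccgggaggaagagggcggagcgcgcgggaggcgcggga
Iyd (chr10:3540024-3540273, plus strand): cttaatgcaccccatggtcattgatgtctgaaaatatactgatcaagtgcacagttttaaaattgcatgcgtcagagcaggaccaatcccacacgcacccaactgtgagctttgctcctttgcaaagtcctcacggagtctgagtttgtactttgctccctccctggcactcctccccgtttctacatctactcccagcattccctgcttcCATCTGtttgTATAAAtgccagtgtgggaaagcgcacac

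The dentate genes with the same order across libraries had unlike promoters. The windows of Prox1 and Dsp held 20 and 22 CpG dinucleotides and that of Tdo2 held 3, where the median of 32851 promoters was 6. The Prox1 window shown had a CAGATG and a TATAAA match, Tdo2 had a TATAAA match, and Dsp had no match. A second RefSeq start of Prox1, with its window at chr1:190169516-190169765, had 11 CpG dinucleotides and no match. The Fibcd1 window was the richest in CpG among the 8 genes, with 34, and had no match to the 3 motifs. Iyd, with 5 CpG dinucleotides, had both CAGATG (read as CATCTG on this strand) and TATAAA. These motifs are common: CAGCTG was found in 13% of all promoters, CAGATG in 14.4%, TATAAA in 12.4% and any of them in 34.8%. The motifs were counted separately, also where matches overlapped. A match is a description of the letters and not a binding site.

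Hippocampus was first set against cerebral cortex, which checks the genes against their label. Of the 10 genes, 8 were higher in hippocampus, against 5.49% of all genes tested, and none was lower. Their median log2 fold change was 2.50, where the median of all genes was -0.00. The exceptions were Wfs1 and Cpne7.

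Dsp (chr13:38151294-38198577, plus strand), which encodes desmoplakin, the plaque protein of desmosomes, had the largest difference from cortex of the 10 genes. In hippocampus it had 110 and 89.1 CPM in KO hippocampus 1 and 2 and 148 and 49.6 CPM in WT hippocampus 2 and 3. In cortex it had 0.551 and 6.53 CPM in KO libraries 1 and 2 and 0.766 and 0.799 CPM in WT libraries 2 and 3. Every hippocampal library lay far above every cortical one, and the only cortical library above 1 CPM was KO 2. Hippocampus over cortex was 5.87 ± 0.76 (edgeR adjusted p = 0.00094), and 7.23 ± 0.89 without the 3 libraries with markers of other regions.

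C1ql2 (chr1:120340582-120343174, plus strand), a secreted synaptic protein of the C1q family found at mossy fibre synapses, was also a gene of the hippocampus. Its level was 37.3 and 27.4 CPM in the KO hippocampus and 35.7 and 36.2 CPM in the WT hippocampus. In cortex it was 1.23 and 7.39 CPM in KO libraries and 2.07 and 0.951 CPM in WT libraries. The log2 fold change of hippocampus over cortex was 3.73 ± 0.72 (edgeR adjusted p = 0.0076), and 4.64 ± 0.28 without the 3 libraries with markers of other regions. KO cortex 2 was again the highest cortical library.

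Prox1 (chr1:190118035-190170714, minus strand), the homeobox transcription factor of granule cells, had 230 and 168 CPM in KO hippocampus and 240 and 137 CPM in WT hippocampus. In cortex it had 23.8 and 77.9 CPM in KO libraries and 24.2 and 25.9 CPM in WT libraries. The regions did not overlap, and the 3 other cortical libraries lay between 23.8 and 25.9 CPM. Hippocampus exceeded cortex by a log2 fold change of 2.44 ± 0.32 (edgeR adjusted p = 0.00068). The antisense genes Prox1os and Gm28172 had 259 and 175 reads over the 4 hippocampal libraries, against 18243 for Prox1. Gm10129, opposite Dsp (9313 reads), had 9 reads. Where exons overlap, such reads cannot be told apart from those of the partner gene if the counting ignored strand. Only the overlap of gene spans was examined, not that of exons.

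Tdo2 (chr3:81957090-81976202, minus strand), tryptophan dioxygenase, the first enzyme of the kynurenine pathway, was the weakest dentate gene in level. It had 5.75 and 5.23 CPM in KO hippocampus and 6.28 and 2.71 CPM in WT hippocampus. Cortex had 1.31 and 0.979 CPM in KO libraries and 0.613 and 0.913 CPM in WT libraries. No cortical library reached the hippocampal range, and hippocampus over cortex was 2.41 ± 0.32 (edgeR adjusted p = 0.00034). Tdo2 was the dentate gene for which KO cortex 2 did not stand out.

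Zbtb20, a zinc finger repressor, was the most abundant of the 10 genes in CPM and per length. Its level was 1868 and 1543 CPM in KO hippocampus and 2042 and 1560 CPM in WT hippocampus. Cortex had 296 and 489 CPM in KO libraries and 283 and 283 CPM in WT libraries. It had the smallest error of the 10, with a log2 fold change of 2.40 ± 0.16 (edgeR adjusted p = 2.7e-06). The gene spans chr16:42875881-43642602 on the plus strand of GRCm38, and other annotated genes overlap this span. Whether they share reads with Zbtb20 was not tested. The antisense genes Gm9968 and Gm15713 had 2232 and 1247 reads in the hippocampal libraries, against 165720 for Zbtb20.

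**Figure D1:**
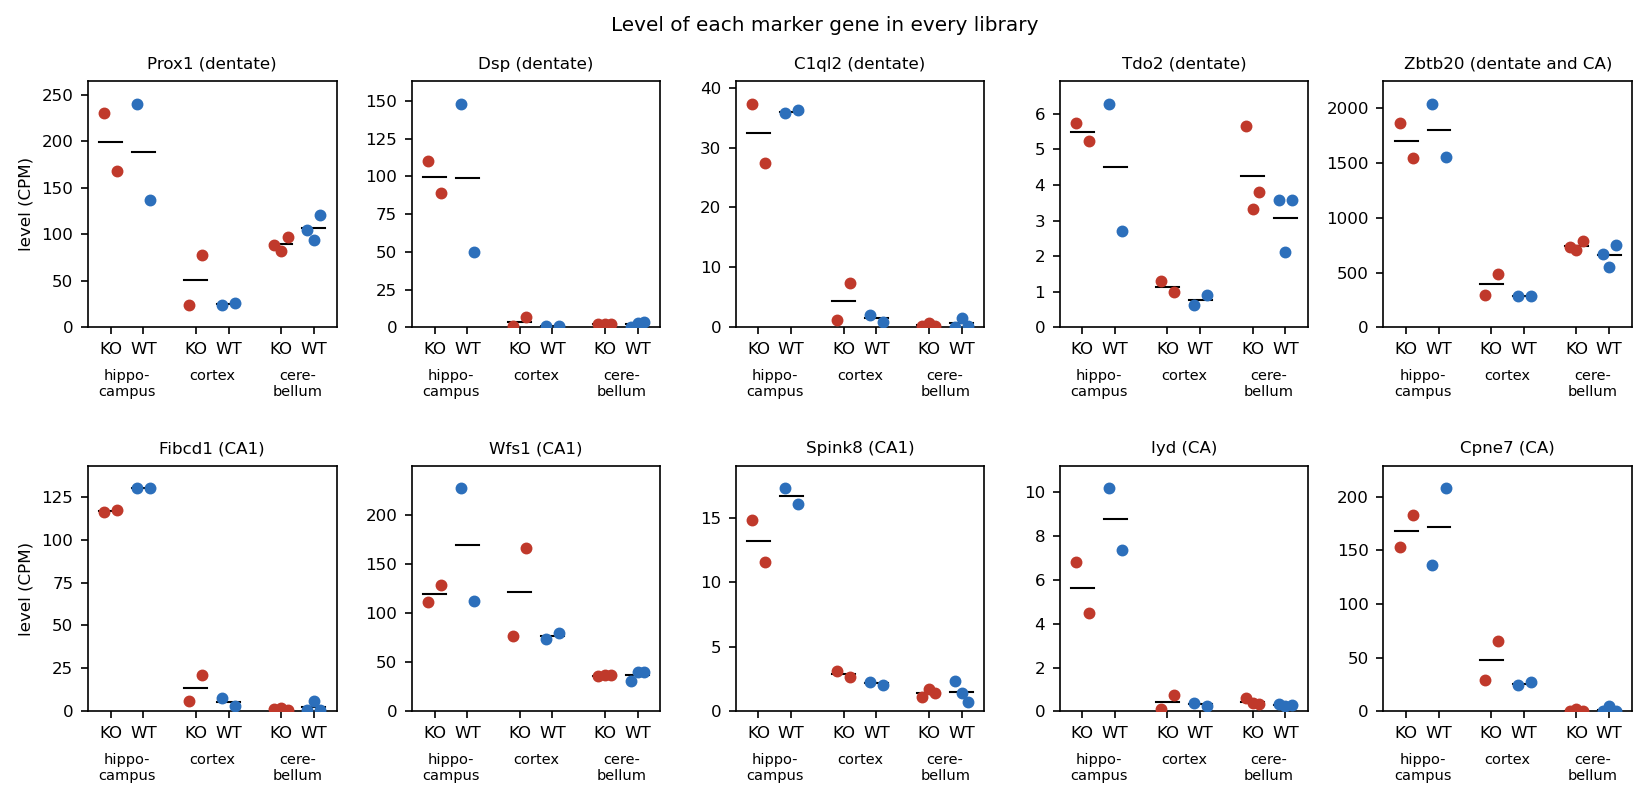
Level of each of the 10 genes in CPM (vertical axes, linear, from 0) in every library, with KO in red left of WT in blue within hippocampus, cortex and cerebellum. Points are libraries and bars are group means. Dsp reached 148 CPM in hippocampus and at most 6.53 CPM elsewhere, while Prox1, Tdo2 and Zbtb20 were also present in cerebellum and Wfs1 in cortex.

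Fibcd1 (chr2:31813290-31846005, minus strand), a membrane receptor that binds acetylated sugars, was the steadiest of the 5 CA genes followed here. It had 116 and 117 CPM in KO hippocampus and 130 and 130 CPM in WT hippocampus. Cortex had 5.94 and 21.4 CPM in KO libraries and 7.74 and 3.16 CPM in WT libraries. The hippocampal libraries hardly differed among themselves. KO cortex 2 was the highest cortical library, and the others also differed, from 3.16 to 7.74 CPM. Fibcd1 was higher in hippocampus by 3.83 ± 0.68 on the log2 scale (edgeR adjusted p = 0.0054), and by 4.43 ± 0.29 without the 3 libraries with markers of other regions.

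Spink8 (chr9:109812280-109826633, plus strand), a member of the Kazal-type protease inhibitor family, had 14.8 and 11.6 CPM in KO hippocampus and 17.3 and 16.1 CPM in WT hippocampus. In cortex it had 3.1 and 2.67 CPM in KO libraries and 2.3 and 2.05 CPM in WT libraries. Its log2 fold change was 2.56 ± 0.28 (edgeR adjusted p = 7.3e-05). Iyd (chr10:3540240-3554877, plus strand), iodotyrosine deiodinase, an enzyme known from the thyroid for recovering iodide, was rare but regional. It had 6.82 and 4.49 CPM in KO hippocampus and 10.2 and 7.35 CPM in WT hippocampus. In cortex its level stayed between 0.127 CPM, which is 3 reads, and 0.742 CPM, which is 25 reads. On the log2 scale the difference was 4.18 ± 0.41 (edgeR adjusted p = 3.7e-05), the largest among the 5 CA genes, and 5.07 ± 0.38 without the 3 libraries with markers of other regions.

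Wfs1 and Cpne7 did not pass against cortex. In the 3 cortical libraries other than KO 2, Wfs1 averaged 52.9% of its hippocampal mean and Cpne7 15.8%, the second close to Spink8 (16.6%), which passed. Wfs1 (chr5:36966104-36989205, minus strand), wolframin, a membrane protein of the endoplasmic reticulum, had 111 and 128 CPM in KO hippocampus and 227 and 112 CPM in WT hippocampus. Cortex had 76.2 and 166 CPM in KO libraries and 73.6 and 79.6 CPM in WT libraries, so that the regions overlapped. The log2 fold change of 0.56 ± 0.24 did not pass (edgeR adjusted p = 0.18). It passed without the 3 libraries with markers of other regions (0.90 ± 0.24, edgeR adjusted p = 0.038), without KO cortex 2 alone (0.90, adjusted p = 0.014) and without WT hippocampus 3 (0.77, adjusted p = 0.048). WT hippocampus 2, the library with the choroid plexus markers, was the highest for Wfs1, and without it the value was 0.26 (adjusted p = 0.6). It also held 97.2 CPM of the thalamic marker Plekhg1, against 49.9 to 56.9 CPM. No other thalamic marker of the list was highest in this library. Tcf7l2 (11.8 CPM) and Synpo2 (9.05 CPM) were at their lowest there among the hippocampal libraries. The part of choroid plexus or thalamic cells in the Wfs1 level was not tested.

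Cpne7 (chr8:123117374-123135182, plus strand), a copine that binds membranes in the presence of calcium, had 153 and 183 CPM in KO hippocampus and 136 and 208 CPM in WT hippocampus. Cortex had 28.9 and 66 CPM in KO libraries and 24.6 and 27 CPM in WT libraries. The regions did not overlap, yet the log2 fold change of 2.28 ± 0.80 did not pass (edgeR adjusted p = 0.11). Without the 3 libraries with markers of other regions it was 2.63 ± 0.21 and passed (edgeR adjusted p = 2.4e-05), as it did without WT cerebellum 2 alone (2.28, adjusted p = 0.011) and by limma voom on all libraries (2.30, adjusted p = 0.0016). In that reduced set all 10 genes were higher in hippocampus than in cortex, as were 10.1% of all genes. DESeq2 gave no adjusted p for Cpne7 in hippocampus over cortex.

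Hippocampus was next set against cerebellum, a region with its own, unrelated granule cells. Here 9 of the 10 genes were higher in hippocampus, against 24.7% of all genes tested. Their median log2 fold change was 3.79, where that of all genes was -0.02. The gene that did not pass was Tdo2.

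Levels in cerebellum fell into a low and a high group. In the 4 cerebellar libraries other than KO 2 and WT 2, 6 genes averaged 0.0806% to 9.52% of their hippocampal mean. The other 4 genes averaged 24.8% to 83.1%. Cpne7 ranged from 0 to 4.74 CPM in the 6 cerebellar libraries with a median of 0.228 CPM. The library at 0 was WT cerebellum 1, where 0 reads allow a level of up to 0.132 CPM, and the highest was WT cerebellum 2. Fibcd1 ranged from 0.662 to 5.9 CPM with a median of 0.937 CPM, and C1ql2 from 0.0441 to 1.6 CPM with a median of 0.231 CPM. For all 3 genes the highest cerebellar library was WT 2 and the next was KO 2, as for Lamp5. The log2 fold changes of hippocampus over cerebellum were 7.11 ± 0.87 for Cpne7, 6.12 ± 0.65 for Fibcd1 and 6.04 ± 0.70 for C1ql2 (edgeR adjusted p = 0.00011, 4.2e-05 and 6.2e-05). Without the 3 libraries with markers of other regions they were 10.18 ± 0.31, 7.24 ± 0.30 and 7.51 ± 0.30.

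Dsp and Iyd were also low in cerebellum, with medians of 2.33 and 0.335 CPM and highest levels of 3.3 and 0.619 CPM. Their log2 fold changes were 5.46 ± 0.62 and 4.26 ± 0.35 (edgeR adjusted p = 6.4e-05 and 7.7e-07). Spink8 had a cerebellar median of 1.42 CPM and a log2 fold change of 3.32 ± 0.25 (edgeR adjusted p = 3.1e-07). In none of these genes did the regions overlap.

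Prox1, Zbtb20, Wfs1 and Tdo2 made up the high group. Prox1 had a cerebellar median of 95.2 CPM and a range of 81.9 to 121 CPM, above all 4 cortical libraries and below all 4 hippocampal ones. Its log2 fold change of 0.99 ± 0.27 passed (edgeR adjusted p = 0.012) but was lost without KO hippocampus 1 (0.85, adjusted p = 0.057) and without WT hippocampus 2 (0.76, adjusted p = 0.069). Zbtb20 had a cerebellar median of 717 CPM and a log2 fold change of 1.33 ± 0.14 (edgeR adjusted p = 6.5e-06). Wfs1 had a median of 36.8 CPM and a log2 fold change of 1.95 ± 0.22 (edgeR adjusted p = 2.4e-05). Tdo2 ranged from 2.11 to 5.66 CPM in cerebellum and overlapped hippocampus, with a log2 fold change of 0.46 ± 0.27 (edgeR adjusted p = 0.18).

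**Figure D2:**
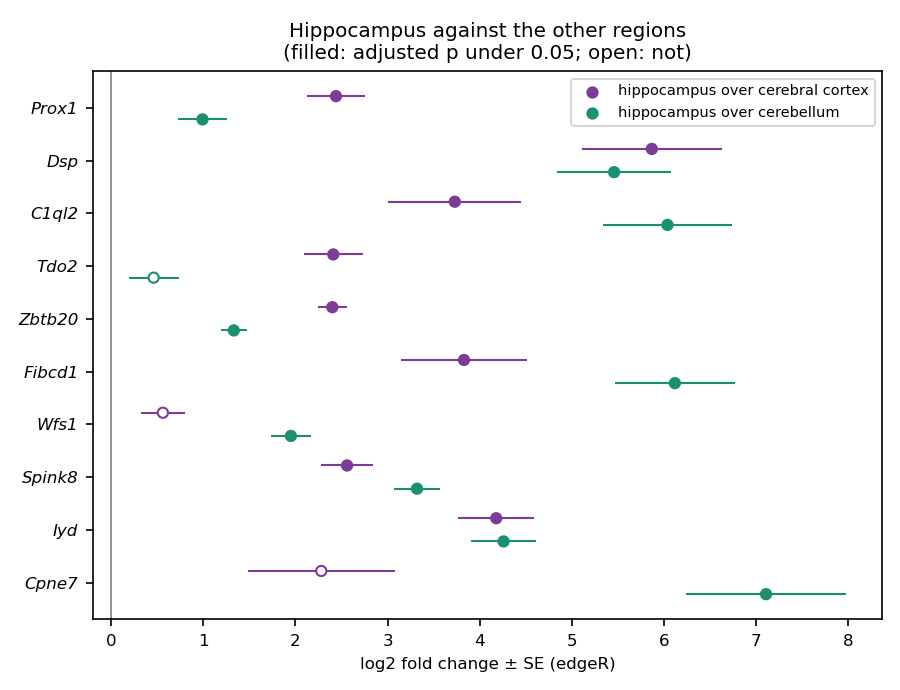
Log2 fold change ± SE (horizontal axis, edgeR) of hippocampus over cerebral cortex (purple) and over cerebellum (green) for each of the 10 genes. Filled points passed at an adjusted p under 0.05 and open points did not. Wfs1 and Cpne7 are open against cortex and Tdo2 is open against cerebellum, and every point lies above 0.

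Cortex against cerebellum split the 10 genes. Higher in cortex were 5 of them, against 25.3% of all genes, and lower in cortex were 3, against 23% of all genes. The higher ones were Cpne7 (log2 fold change 4.84 ± 0.83), C1ql2 (2.32 ± 0.71), Fibcd1 (2.29 ± 0.62), Wfs1 (1.39 ± 0.22) and Spink8 (0.76 ± 0.25). The lower ones were Tdo2 (-1.95 ± 0.31), Prox1 (-1.45 ± 0.29) and Zbtb20 (-1.07 ± 0.15). Dsp and Iyd, low in both regions against hippocampus, did not pass (-0.41 ± 0.69 and 0.09 ± 0.41). Without the 3 libraries with markers of other regions, Cpne7 was at 7.55 ± 0.34, Prox1 at -2.08 ± 0.22, Dsp at -1.70 ± 1.02 and Iyd at -0.94 ± 0.48, with Dsp and Iyd still not past the threshold. In that set C1ql2 (2.88 ± 0.43, edgeR adjusted p = 0.00012) and Fibcd1 (2.81 ± 0.35, adjusted p = 0.0002) passed. With all other libraries kept, both calls were lost when 1 cortical library was left out: C1ql2 was at 1.39 (edgeR adjusted p = 0.16) without KO cortex 2 and 1.98 (adjusted p = 0.1) without WT cortex 2. Fibcd1 was at 1.67 (adjusted p = 0.082) and 1.90 (adjusted p = 0.067) without the same libraries. Spink8 was lost without WT cortex 2 (0.72, adjusted p = 0.075) and without KO cerebellum 1 (0.69, adjusted p = 0.059). C1ql2 was also lost with libraries of 1 number and genotype blocked (1.94, edgeR adjusted p = 0.069) and without the filter on low counts (2.31, adjusted p = 0.053).

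Levels can be set against each other only per length, as CPM per kilobase of annotated exon. On that scale the mean over the 4 hippocampal libraries was 57 for Zbtb20, 38.2 for Wfs1, 32.2 for Cpne7, 26 for Fibcd1 and 23.1 for Prox1. It was 18.2 for Spink8, 17.1 for C1ql2, 10.3 for Dsp, 4.45 for Iyd and 1.29 for Tdo2. Neighbours in this order often overlapped: Wfs1 ranged from 29.2 to 60, Cpne7 from 25.7 to 39.5, Fibcd1 from 24.4 to 27.4 and Prox1 from 16.4 to 28.7. Iyd (2.77 to 6.3) overlapped Dsp (5.14 to 15.4), while Tdo2 (0.699 to 1.62) lay below the other 9 genes and Zbtb20 (50.2 to 66.5) overlapped only Wfs1. The exon length of Zbtb20, 30.73 kilobases, is that of all annotated transcripts together and lowers its value on this scale.

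Other markers of the same fields did not all share the regional pattern. Of 8 further dentate granule genes, 2 were higher in hippocampus than in cortex and 1 was lower. Lct, the lactase gene, was higher by 5.25 ± 0.39 and Il16, a cytokine precursor, by 3.54 ± 0.20, while Gsg1l, an AMPA receptor partner, was at -1.68 ± 0.18 (edgeR adjusted p = 1.5e-05, 9.5e-07 and 7.7e-05). Of 6 CA3 genes 3 were higher, led by Homer3 (2.88 ± 0.19), a postsynaptic scaffold, and Grik4 (1.48 ± 0.15), a kainate receptor subunit, and 1 was lower, Coch (-2.69 ± 0.18). Of 6 CA2 genes 3 were higher, Amigo2 (1.74 ± 0.33), Rgs14 (1.55 ± 0.18) and Map3k15 (1.30 ± 0.26). Of 5 CA1 genes 3 were higher, Gpr161 (2.75 ± 0.20), Man1a (1.58 ± 0.12) and Pou3f1 (1.44 ± 0.39). Of 3 mossy cell genes none passed. Of 6 genes of cortical layers, 4 were lower in hippocampus and none was higher, led by Rspo1 (-4.29 ± 0.66) and Cux2 (-2.53 ± 0.22).

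Within the hippocampus the 4 dentate genes varied more between libraries than the median gene. The highest library exceeded the lowest by a factor of 2.99 for Dsp, 2.32 for Tdo2 and 1.75 for Prox1, where the median over 16053 genes with a mean of at least 2 CPM was 1.23. In all 3 genes the order of libraries was WT 2, KO 1, KO 2 and WT 3, from high to low, which 5.08% of the 16053 genes shared. Both WT libraries thus lay outside the KO libraries, at either end. Of the 8 further dentate genes, 2 had the same order, Npnt and Lct, the second with 95.2 and 78.1 CPM in KO and 111 and 56.6 CPM in WT hippocampus. So did 2 of 6 CA2 genes (Amigo2 and Map3k15), 1 of 5 CA1 genes (Man1a) and 0 of 6 CA3 genes, so the order was found in other fields as well. C1ql2 did not: its highest library was KO 1 and its lowest was KO 2, with a factor of 1.36.

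None of the 5 CA genes followed here had this order. Fibcd1 differed by a factor of only 1.12 between its highest and lowest library. Cpne7 ran in the reverse order of Prox1, highest in WT 3 and lowest in WT 2, with a factor of 1.53. Wfs1 and Iyd differed by factors of 2.05 and 2.28, both with WT 2 highest. The library with the lowest Prox1, Dsp and Tdo2, WT hippocampus 3, also had the lowest level of cerebellar granule cell markers. Gabra6 was at 7.49 and 4.62 CPM in KO hippocampus and 8.46 and 0 CPM in WT hippocampus, and Fat2 at 12.5 and 7.67 CPM in KO and 12.5 and 0.59 CPM in WT. The 6 markers summed to 153 and 143 CPM in KO and 132 and 91.1 CPM in WT hippocampus, against 3017 to 5061 CPM in cerebellum. Their part in the order was not tested.

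**Figure D3:**
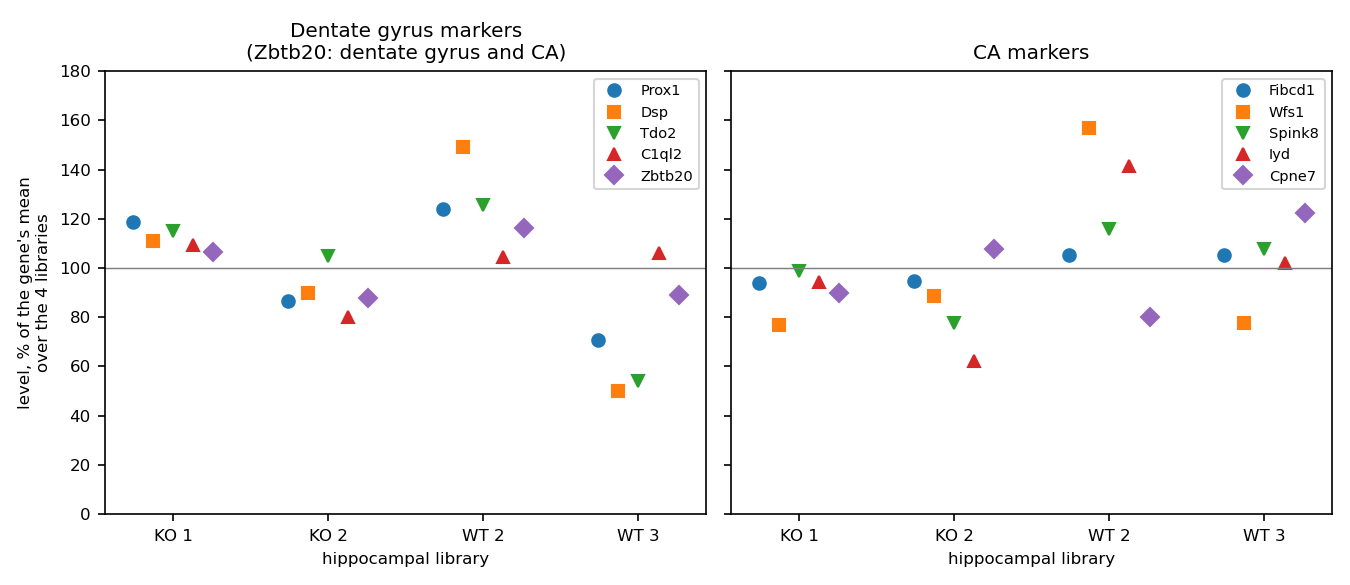
Level of each gene in the 4 hippocampal libraries as a percent of its own mean over them (vertical axis, linear), for dentate genes with Zbtb20 (left) and CA genes (right), KO libraries left of WT libraries. Each symbol is 1 library. Dsp, Tdo2 and Prox1 are highest in WT 2 and lowest in WT 3 with both KO libraries between them, while Fibcd1 stays close to 100% throughout.

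The comparison of CARIP-/- with wild type asked whether loss of CARIP changed these genes in any region. None of the 10 passed in hippocampus, where 0% of all 24680 genes passed by edgeR. At an unadjusted p under 0.05 there were 472 genes in all and 0 of the 10. DESeq2, which gave no adjusted p for Cpne7, called 2 genes and limma voom 0, in neither case one of the 10.

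In hippocampus 7 of the 10 log2 fold changes were negative and the median was -0.12, where that of all genes was -0.00. In the same comparison 6 of 6 choroid plexus markers (median -1.95), 6 of 6 oligodendrocyte markers (median -0.64) and 8 of 8 striatal markers (median -0.65) were negative. So were 6 of 6 markers of immature granule neurons (median -0.52), while 6 of 6 cerebellar granule markers were positive (median 0.58). None of these markers passed. The choroid plexus markers summed to 95.3 and 79.5 CPM in KO and 1130 and 130 CPM in WT hippocampus, and the oligodendrocyte markers to 2824 and 3801 CPM in KO and 5009 and 4252 CPM in WT. WT hippocampus 2, highest in both sums, was also the highest library for 8 of the 10 genes, and without it 5 of the 10 were negative and their median was -0.03. The part of these cells in the values was not tested. Dentate means lay close together: Prox1 averaged 199 ± 43.7 CPM in KO and 189 ± 72.9 CPM in WT (SD, n = 2 each), and Dsp 99.5 ± 14.8 CPM in KO and 99 ± 69.8 CPM in WT. The groups did not overlap for 3 genes, each lower in KO, while 36.6% of all genes did not overlap in this comparison. Fibcd1 averaged 117 ± 1 CPM in KO and 130 ± 0.353 CPM in WT, with a log2 fold change of -0.16 ± 0.85. Spink8 averaged 13.2 ± 2.29 CPM in KO and 16.7 ± 0.837 CPM in WT (-0.34 ± 0.36). Iyd averaged 5.65 ± 1.65 CPM in KO and 8.79 ± 2.03 CPM in WT (-0.64 ± 0.48). Wfs1, C1ql2 and Tdo2, whose groups overlapped, were at -0.50 ± 0.34, -0.15 ± 0.88 and 0.29 ± 0.42. Their edgeR adjusted p was 1. In the fit to all 14 libraries the errors on the log2 scale ran from 0.22 for Zbtb20 to 1.07 for Cpne7. A change of 2-fold was thus within 1 SE for Cpne7 in that fit. Without the 3 libraries with markers of other regions, all cortical or cerebellar, the hippocampal errors ran from 0.13 for Zbtb20 to 0.65 for Dsp. They were then 0.23 for Cpne7 and 0.27 for Fibcd1. Each genotype had 2 hippocampal libraries in both fits.

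In cerebral cortex all 10 log2 fold changes were positive, with a median of 0.77 where that of all genes was 0.02, but none passed. No gene of the table passed by edgeR (0%). At an unadjusted p under 0.05 there were 1825 genes, among them 1 of the 10, Prox1. DESeq2, again with no adjusted p for Cpne7, called 50 genes and limma voom 0, again none of the 10. The largest values were those of Dsp (2.22 ± 1.09, edgeR adjusted p = 0.69), C1ql2 (1.53 ± 1.0, 0.71), Fibcd1 (1.34 ± 0.91, 0.71) and Prox1 (1.02 ± 0.44, 0.68). The groups did not overlap for 4 genes, each higher in KO, Tdo2, Zbtb20, Spink8 and Cpne7, while 27.3% of all genes did not overlap.

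Of these values, 5 turned negative without KO cortex library 2. The log2 fold change was then -0.08 for Prox1, -0.51 for Dsp, -0.30 for C1ql2, -0.01 for Wfs1 and -1.32 for Iyd. The other 5 stayed positive, at 0.06 for Zbtb20, 0.12 for Fibcd1, 0.16 for Cpne7, 0.50 for Spink8 and 0.78 for Tdo2, the last 2 larger than with it (0.40 and 0.58). Without KO cortex 1, which leaves KO cortex 2 as the only KO library and lends it the spread of the other groups, 3 of the 10 passed: Prox1 (1.64, edgeR adjusted p = 0.0085), Zbtb20 (0.79, 0.025) and Wfs1 (1.12, 0.036). In that fit 3005 genes passed, and 5.41% of all genes were higher in KO.

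**Figure D4:**
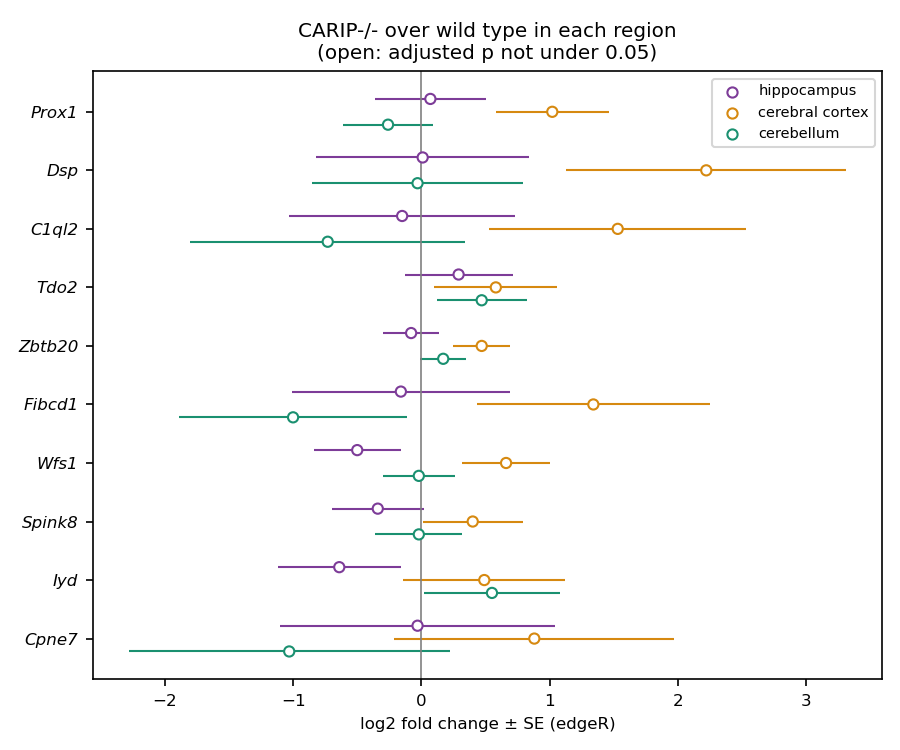
Log2 fold change ± SE (horizontal axis, edgeR) of CARIP-/- over wild type in hippocampus (purple), cerebral cortex (orange) and cerebellum (green) for each of the 10 genes. All points are open because none passed at an adjusted p under 0.05. The cortical values all lie above 0, and 5 of them turn negative without KO cortex library 2.

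KO cortex 2 exceeded the mean of the other 3 cortical libraries by unlike amounts. Its level over their mean was 9.25 for Dsp, 5.22 for C1ql2, 3.82 for Fibcd1, 3.16 for Prox1, 2.87 for Iyd, 2.46 for Cpne7, 2.18 for Wfs1 and 1.7 for Zbtb20. Spink8 (1.08) and Tdo2 (1.03) were hardly raised, and both were higher in KO cortex 1 than in KO cortex 2. Expressed as a percent of each gene's mean level in hippocampus, the excess was 62.2% for Wfs1, 27.5% for Prox1, 23.1% for Cpne7, 17.5% for C1ql2, 12.8% for Fibcd1 and 11.5% for Zbtb20. It was 6.69% for Iyd, 5.87% for Dsp, 1.26% for Spink8 and 0.645% for Tdo2. The excess was thus not the same share of the hippocampal level for all genes. The same library held 196 CPM of the striatal marker Ppp1r1b, against 37 to 45.3 CPM in the other cortical libraries, and 126 CPM of the thalamic marker Plekhg1, against 27.7 to 40.9 CPM. It held 70.5 CPM of Calb2, calretinin, against 4.37 to 6.63 CPM. Their part in the levels of the 10 genes was not tested.

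**Figure D5:**
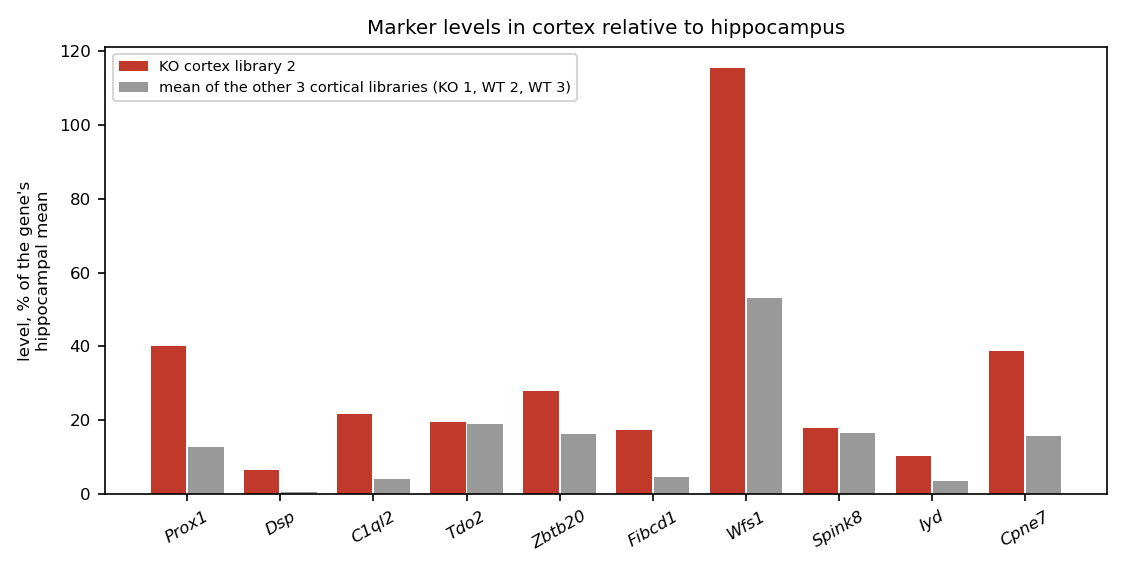
Level in KO cortex library 2 (red) and mean level in the other 3 cortical libraries (grey) as a percent of the gene's mean in hippocampus (vertical axis, linear from 0). Wfs1, Prox1 and Cpne7 are raised most on this scale, and Spink8 and Tdo2 are level with the other libraries.

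In cerebellum, with 3 libraries per genotype, none of the 10 passed, 0% of all genes passed by edgeR, and at an unadjusted p under 0.05 there were 785 genes, 0 of them among the 10. DESeq2 called 2 genes and limma voom 0. The groups overlapped for all 10, while 9.29% of all genes did not overlap. Of the genes at high levels in cerebellum, Prox1 averaged 89.1 ± 7.48 CPM in KO and 107 ± 14 CPM in WT (SD, n = 3 each), with a log2 fold change of -0.26 ± 0.35. Zbtb20 averaged 741 ± 44.4 CPM in KO and 658 ± 101 CPM in WT (0.17 ± 0.18). Tdo2 averaged 4.26 ± 1.23 CPM in KO and 3.09 ± 0.841 CPM in WT (0.47 ± 0.35). Wfs1 averaged 36.4 ± 0.661 CPM in KO and 37 ± 4.98 CPM in WT (-0.02 ± 0.28). Blocking the cerebellar libraries by number called 58 genes, 9 higher and 49 lower in KO, and none of the 10.

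The difference of the KO effect between regions was tested as an interaction in the same fit. Between hippocampus and cortex none of the 10 passed, nor did any other gene by edgeR (0%). All 10 values were negative, from -2.21 to -0.29. At an unadjusted p under 0.05 there were 782 genes in all and 1 of the 10, Wfs1. Without KO cortex 1, Prox1 passed (-1.56 ± 0.36, edgeR adjusted p = 0.047) among 760 genes, and 1.15% of all genes were lower. Without the 3 libraries with markers of other regions, 4 of the 10 were positive, Iyd (0.70), Dsp (0.53), Prox1 (0.17) and C1ql2 (0.16). Between hippocampus and cerebellum the values ran from -1.18 to 1.0, 0% of genes passed, and at an unadjusted p under 0.05 there were 368 genes in all and 0 of the 10. DESeq2 and limma voom called 0 genes in either interaction.

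The genes whose log2 CPM followed Prox1 and Fibcd1 most closely over the 14 libraries were taken from 15745 genes by Pearson's r. For Prox1 they were Arhgap12 (0.976), Kcnab1 (0.972), Ptpre (0.971), Tanc1 (0.968) and Doc2b (0.967). Like Prox1 these were intermediate in cerebellum: Tanc1 ranged from 292 to 341 CPM in hippocampus, from 47.7 to 105 CPM in cortex and from 146 to 190 CPM in cerebellum. For Fibcd1 they were Trpc5 (0.992), Mycl (0.986), Rasgrf1 (0.984), Crim1 (0.984) and Nt5dc3 (0.983). Trpc5, a cation channel, ranged from 51.5 to 61 CPM in hippocampus, from 17.6 to 33 CPM in cortex and from 9.84 to 19.7 CPM in cerebellum. The 14 points fall into 3 regions and share their libraries, so r describes mainly the order of the regions.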

How the data were processed

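The authors deposited read counts per gene for 14 libraries. Per the submitters' processing notes, Trim Galore 0.6.4, cutadapt 2.10, STAR 2.7.3a, featureCounts 2.0.1 and GRCm38.p6 (mm10) were used. The strand setting and the handling of multi-mapping reads were not given in the sources used here. Symbols and coordinates came from GENCODE on GRCm38, which matched 99.2% of 48440 identifiers.

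From the counts, edgeR 4.0.16 (R 4.3.3) kept 24680 genes with filterByExpr, scaled libraries by TMM and fitted 6 groups of region and genotype to all libraries with the robust quasi-likelihood test, with 8 degrees of freedom left for the spread and a biological variation of 24.7%. P-values were adjusted by Benjamini-Hochberg over all genes kept. The procedure was tested on simulated counts. Alternatives were DESeq2 1.42.0, DESeq2 size factors, limma voom 3.58.1, no filter, each region fitted alone, each library left out, and a replicate block.

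The members and the 16 lists of other markers were chosen with earlier results of these data known. All 10 members were tested in every comparison and are named in each comparison of regions. The genotype comparisons and interactions do not all name each of them. Of each list, the rule was to name up to 3 passing genes per direction, or else the 2 with the highest level. Not every list is given in every comparison, and for some lists fewer genes are named. For likeness the 5 genes closest to Prox1 and to Fibcd1 are named. The result of 1 gene of the CA1 list is not reported here. Lamp5 in cerebellum, Calb2 and Ppp1r1b in cortex, and Gabra6, Fat2, Tcf7l2 and Synpo2 in hippocampus were named after their values were seen. So were Npnt, Lct, Amigo2, Map3k15 and Man1a by library.

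No label says what the library numbers stand for. Deviations from the group mean correlated at 0.31, 0.81 and 0.41 between KO and WT cerebellar libraries of the same number, over the bound of 0.1, but KO 1 with WT 3 (0.38) and KO 3 with WT 1 (0.52) were as high. By that bound cortex pairs with hippocampus (0.18 to 0.25) and with cerebellum (0.17 to 0.41) by genotype and number. However, KO cortex 1 correlated more with KO cerebellum 3 (0.35) than with KO cerebellum 1 (0.23). In groups of 2 libraries the deviations mirror each other, so the values within a genotype are not independent.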

Additional observations from a re-analysis of the deposited data

How the results depend on the processing

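Over 21 alternatives, 1198 values of the 10 genes were recomputed: 1130 kept their direction and their side of the threshold, 9 newly passed, 11 no longer passed and 48 turned sign. All 48 were values that had not passed. Every region difference that passed kept its direction. The cause of the changes below was not tested. With libraries left out 1 at a time, the count of the 10 higher in KO cortex ran from 0 to 3, the count higher in cortex than in cerebellum from 2 to 5, and the count lower in the hippocampus against cortex interaction from 0 to 1. The log2 fold change of KO over WT in cortex then ran from -0.30 to 2.29 (C1ql2), -0.51 to 3.06 (Dsp), -1.32 to 1.18 (Iyd), -0.08 to 1.64 (Prox1) and -0.01 to 1.12 (Wfs1). In cerebellum it ran from -1.54 to 1.43 (C1ql2), -3.44 to 2.75 (Cpne7), -0.48 to 0.33 (Dsp), -1.43 to 0.86 (Fibcd1), -0.34 to 0.44 (Spink8) and -0.13 to 0.03 (Wfs1). In hippocampus it ran from -0.40 to 0.05 (C1ql2), -0.31 to 0.30 (Cpne7), -0.58 to 1.01 (Dsp), -0.28 to 0.54 (Prox1), -0.20 to 1.02 (Tdo2), -0.93 to 0.10 (Wfs1) and -0.26 to 0.13 (Zbtb20). Cortex over cerebellum ran from -1.77 to 0.01 for Dsp and from -0.82 to 0.44 for Iyd.

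Without KO cortex 2, KO cerebellum 2 and WT cerebellum 2, KO over WT in cortex was -0.09 for Prox1, -0.52 for Dsp, -0.31 for C1ql2, -0.02 for Wfs1 and -1.33 for Iyd. In cerebellum it was 0.26 for Dsp, 0.61 for C1ql2, 0.45 for Fibcd1, 0.02 for Wfs1 and 0.32 for Cpne7, and Iyd in cortex over cerebellum was -0.94. In limma voom, KO over WT in cerebellum was 0.32 for Dsp, 0.15 for C1ql2, 0.13 for Spink8 and 0.32 for Cpne7, and Iyd in cortex over cerebellum was -0.07. With the replicate block, KO over WT in cerebellum was 0.17 for Dsp and 0.06 for Spink8. Hippocampal and cerebellar libraries of 1 genotype and number correlated at -0.088 to 0.18, and under the block Prox1 over cerebellum was 1.02 (edgeR adjusted p = 0.095). The block also ended the C1ql2 call of cortex over cerebellum and changed no other call of the 10 genes. KO and WT share only number 2 in cortex and in hippocampus, so no paired fit was made there. DESeq2 gave no adjusted p for Cpne7 in the comparisons of regions and of genotype.

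Over all genes, the count higher in hippocampus than in cortex was 1356, 722 to 2194 with 1 library left out and 2569 without the 3 libraries. KO against WT in hippocampus called 0 genes, 4 in hippocampal libraries alone and 3 without the 3 libraries. In cerebellum it called 0 genes and 58 with the block, and in cortex 0 genes, 1 without the filter and 3005 without KO cortex 1. The groups of 2 libraries limit the genotype comparisons, and the low levels of Tdo2 and Iyd limit theirs further.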
